A study of Mus musculus with 4 samples.

Results

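IGF1 signalling was represented here by 10 genes: the ligand gene Igf1, the receptor gene Igf1r, the 6 IGF binding protein genes Igfbp2, Igfbp3, Igfbp4, Igfbp5, Igfbp6 and Igfbp7, and the docking protein genes Irs1 and Irs2. They were chosen by name, as the probe sets whose platform annotation gives 1 of these genes and no other, with the mean taken per gene. All 10 were measured, through 11 probe sets, among 19938 genes on the arrays. Irs1 had 2 probe sets and each of the others had 1.

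The cells were dermal papilla cells sorted from mouse skin at postnatal day 5 for a Sox2-driven GFP together with the surface integrin encoded by Itga9. One group was heterozygous for the transcription factor gene Sox2 (Het) and the other carried a conditional knockout of it (cKO), and each had 2 arrays labelled as biological replicates. The comparison asks how loss of Sox2 changes the expression profile of the papilla. Both groups carry the GFP reporter. The strain, the Cre driver and any pooling of animals are not named in the labels, so p-values measure only the spread between these samples, which may be technical. Values are log2 units around a zero that is, for each probe set, its own median over the 4 arrays. They therefore carry differences between arrays and no level, so genes cannot be ranked by abundance and the papilla identity of the cells cannot be checked by the presence of its markers.

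IGF1 is a secreted growth factor that binds the receptor tyrosine kinase IGF1R. The active receptor phosphorylates IRS docking proteins, which recruit PI3K and so activate AKT and mTOR, while a second branch runs through RAS and MAPK. Binding proteins hold IGFs in tissue fluid and the matrix, and proteases that cut them release the ligand. In the hair follicle IGF1 is known as a papilla signal to the epithelium above it and as a factor that sustains follicle growth.

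No member passed the test of cKO against Het, which was limma over all 19938 genes with Benjamini-Hochberg adjustment, and the members' adjusted p-values lay between 0.968 and 1. Over all genes 0 passed as well (0% called, smallest adjusted p = 0.345), with 1053 genes at an unadjusted p under 0.05 and 0 of the 10 members among them. The largest differences were those of Igf1, at 0.68 higher in cKO, and Igfbp3, at -0.66, yet both had overlapping groups. In each of the 10 members the larger of the 2 gaps between replicate arrays was wider than the difference between the groups, as it was in 78.3% of all genes. For Igfbp6 this was a near tie, 0.001678 against 0.001677. Igfbp3 had the widest gap between the 2 cKO arrays of any gene on the array. An exact permutation test of a single gene with 2 arrays against 2 cannot go below p = 0.33.

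**Figure D1:**
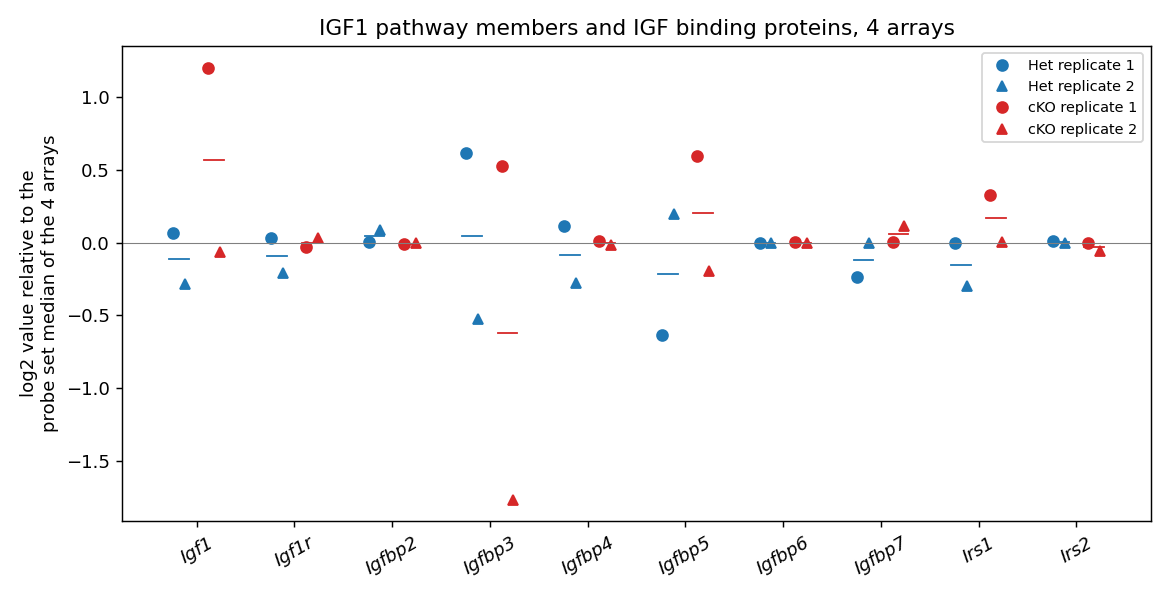
Log2 value of each member gene in each of the 4 arrays, relative to the probe set median; circles are replicate 1, triangles replicate 2, and short lines are group means (n = 2). Igf1 stands at 1.20 in cKO replicate 1 alone, Igfbp3 at -1.76 in cKO replicate 2, and Igfbp6 lies flat at 0.

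Promoter windows are shown for Igf1 and Igfbp3, the members with the largest differences in each direction. Both come from RefSeq on GRCm38.p6, give the bases before an annotated start site, 5′ to 3′ on the strand of the gene, and have capitals only where a searched motif was found. Igf1 lies at chr10:87860861-87861110 on the plus strand and Igfbp3 at chr11:7213924-7214173 on the minus strand.
Igf1: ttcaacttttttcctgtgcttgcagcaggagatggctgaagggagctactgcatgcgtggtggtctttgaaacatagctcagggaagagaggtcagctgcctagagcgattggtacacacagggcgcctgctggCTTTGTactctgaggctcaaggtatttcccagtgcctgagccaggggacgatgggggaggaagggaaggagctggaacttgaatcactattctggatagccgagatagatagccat
Igfbp3: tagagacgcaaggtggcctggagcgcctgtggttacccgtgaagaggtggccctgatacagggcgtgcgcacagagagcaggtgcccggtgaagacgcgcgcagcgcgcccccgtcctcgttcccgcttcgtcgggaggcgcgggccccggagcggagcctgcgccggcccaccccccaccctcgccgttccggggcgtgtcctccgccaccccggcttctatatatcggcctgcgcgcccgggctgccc

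The letters searched were ACAAAG and ACAATG, cores bound by SOX proteins, and GTAAACA, a core bound by FOXO proteins, each on both strands and with no overlap between motifs found. Of the 11 windows of the 10 members, 1 held a SOX core, that of Igf1, where the reverse complement CTTTGT lies 116 to 111 bases before the start. None of the 11 held the FOXO core. Among all 32851 windows of the same length, 25.2% held a SOX core and 3.17% the FOXO core. A match describes the letters only. The Igf1 window was GC-poor beside that of Igfbp3, with 52.8% against 73.2% G and C, where the median over all windows was 52.4%.

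Igf1, the ligand gene, had values of 0.07 in Het replicate 1, -0.29 in Het replicate 2, 1.20 in cKO replicate 1 and -0.07 in cKO replicate 2. A single array, cKO replicate 1, was thus high, and the other cKO array fell between the Het arrays. Subtracting Het from cKO, the means differed by 0.68 ± 0.50 (SE; each group n = 2 arrays), or 1.60-fold, with an adjusted p of 0.985 (limma). The SD was 0.25 in Het and 0.90 in cKO. The gap between the cKO arrays was 1.27, or 2.41-fold, the 19th widest of 19938 genes, and that between the Het arrays was 0.35. Without cKO replicate 1 the difference shrank to 0.04, and without cKO replicate 2 it grew to 1.31. By size alone Igf1 and Igfbp3 were the 2 members with an absolute difference of at least 0.5, a size reached by 1.14% of all genes, and they ranked 92nd and 96th of 19938.

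Igf1r, the receptor gene, varied much less. Its values were 0.03 and -0.21 in the Het arrays and -0.03 and 0.03 in the cKO arrays, so that Het replicate 2 was the low array and the groups overlapped. The difference was 0.09 ± 0.10 (SE), and it turned to -0.03 without Het replicate 2.

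Of the docking protein genes, Irs1 was higher in both cKO arrays and Irs2 differed little. Irs1 stood at -0.0048 and -0.30 in Het and at 0.33 and 0.0048 in cKO, a difference of 0.32 ± 0.17 (SE) and the smallest adjusted p of the members (0.968, limma). The groups did not overlap, but the nearest arrays, Het replicate 1 and cKO replicate 2, were only 0.0096 apart. The difference was 0.16 without cKO replicate 1 and 0.17 without Het replicate 2, and 0.47 and 0.48 without Het replicate 1 and cKO replicate 2. The 2 Irs1 probe sets differed in size. One gave 0.56, with values of 0.01 and -0.51 in Het and 0.62 and -0.01 in cKO and overlapping groups, and the other gave 0.08, with -0.02 and -0.09 in Het and 0.04 and 0.02 in cKO. Irs2, the other IRS gene, lay between -0.06 and 0.01 on all arrays, with overlapping groups and a difference of -0.03 ± 0.04.

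Among the binding protein genes, Igfbp3, which encodes the main carrier of IGF in the circulation, was the most variable between replicates. Its values were 0.62 in Het replicate 1, -0.53 in Het replicate 2, 0.53 in cKO replicate 1 and -1.76 in cKO replicate 2. In each group replicate 1 was high and replicate 2 low, and the lowest array by far was cKO replicate 2. The gap between the cKO arrays was 2.29, or 4.90-fold, the widest of 19938 genes, and the gap between the Het arrays was 1.14, or 2.21-fold, the 15th widest. The difference between groups was -0.66 ± 0.97 (SE, adjusted p = 0.994, limma). Of the 4 pairings of a cKO with a Het array, 3 were lower, the extreme being -2.38, and 1 was higher by 1.06. Without cKO replicate 2 the difference turned to 0.48.

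Igfbp5 encodes a binding protein that also attaches to extracellular matrix. It was -0.63 and 0.20 in Het and 0.60 and -0.20 in cKO, with Het replicate 1 the low array and cKO replicate 1 the high one. Its groups overlapped and its difference was 0.42 ± 0.44 (SE), which shrank to 0.0020 without Het replicate 1 and to 0.02 without cKO replicate 1. Here the 2 arrays of each group were about equally far apart, by 0.83 in Het and 0.80 in cKO.

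Igfbp2, the next protein-coding gene to Igfbp5 on the chromosome, showed no such spread. It stood at 0.0050 and 0.08 in Het and at -0.0088 and -0.0050 in cKO. Both cKO arrays were lower, but the nearest arrays were 0.01 apart and the difference was -0.05 ± 0.05 (SE). It was -0.01 without Het replicate 2 and -0.09 without Het replicate 1. The pair of neighbours thus differed in the size of their array-to-array changes, the Het gap being 0.08 in Igfbp2 and 0.83 in Igfbp5.

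Igfbp7 encodes a family member with weak affinity for IGFs. It stood at -0.24 and -0.0055 in Het and at 0.0055 and 0.11 in cKO, higher in both cKO arrays, with a difference of 0.18 ± 0.10 (SE, adjusted p = 0.978, limma). Its nearest arrays, of opposite groups, were 0.01 apart, and without Het replicate 1 the difference was 0.06.

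Igfbp4 encodes an inhibitory binding protein that is cut by the protease of Pappa. It was 0.11 and -0.28 in Het, while both cKO arrays lay between these, at 0.01 and -0.01. Its difference was 0.08 ± 0.15 (SE), with 2 pairings of arrays higher and 2 lower. Igfbp6, whose product prefers IGF2 over IGF1, lay within -0.0017 and 0.0017 on all 4 arrays, with a difference of 0.0017 ± 0.03. Because the level is not in the values, a gene that is steady and one that is not detected cannot be told apart here.

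**Figure D2:**
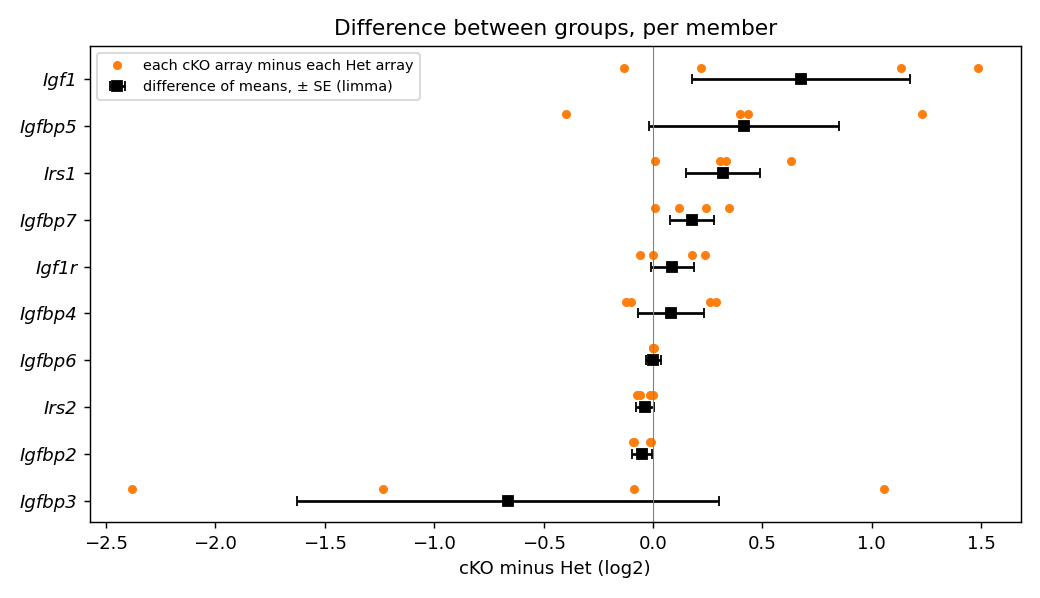
Difference between groups for each member, cKO minus Het on the log2 scale: black squares are differences of group means with bars of 1 SE from limma (n = 2 arrays per group), and orange points are the 4 pairings of a cKO with a Het array. The pairings of Igfbp3 run from -2.38 to 1.06, and all 4 lie on 1 side of 0 for Irs1, Igfbp7 and Igfbp2.

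Read over the set, 2 of the 10 members, Irs1 and Igfbp7, were higher in both cKO arrays than in both Het arrays, against 17.8% of all genes. For 1 member, Igfbp2, both cKO arrays were lower, against 15.6% of all genes. The other 7 overlapped. Thus the share of separated members was close to that of the arrays as a whole. The median difference of the members was 0.09, beside 0.0034 over all genes, and it was -0.0055 without Het replicate 2. By sign 7 members were higher, Igfbp6 by only 0.0017, and 3 lower, where 10420 of 19938 genes were higher. All genes here include dim probe sets, which could not be filtered out. The members' median gap between the Het arrays was 0.27, beside 0.06 over all genes, and between the cKO arrays it was 0.08, beside 0.07. Het replicate 2 was the lowest array for 5 of the 10 members, as it was for 21.6% of all genes, and cKO replicate 1 was the highest for 4, against 22.3% of all genes. Both counts include Igfbp6, which lay within -0.0017 and 0.0017 on every array.

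**Figure D3:**
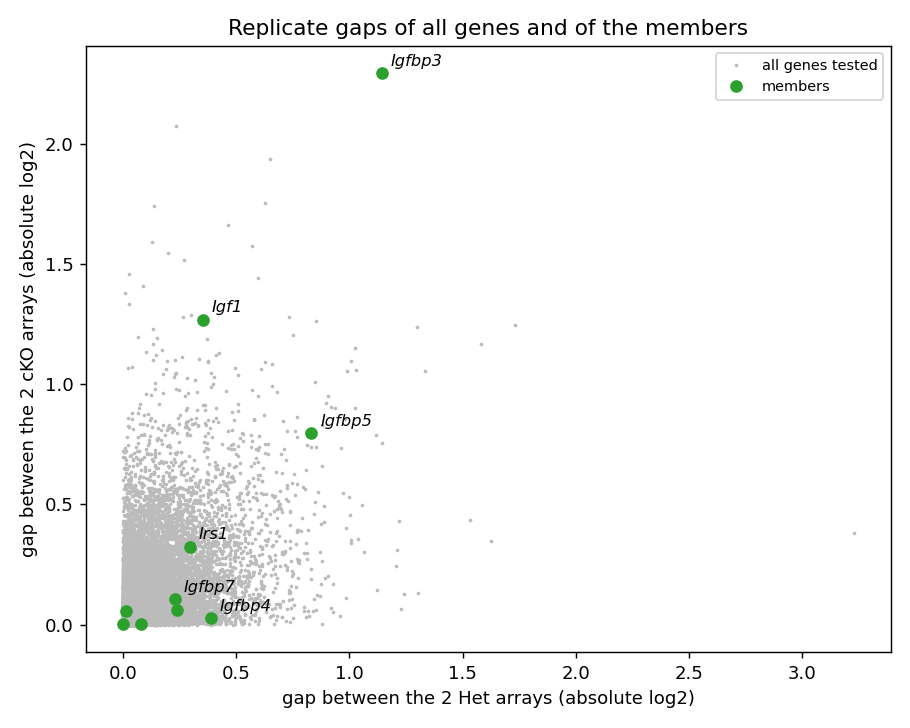
Absolute log2 gap between the 2 Het arrays (horizontal) and between the 2 cKO arrays (vertical) for 19938 genes in grey and the 10 members in green. Igfbp3 lies at the top at 2.29, Igf1 at 1.27, and Igfbp5 has gaps of 0.83 and 0.80.

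The rest of the pathway was read from lists of 101 further genes, of which 91 were measured and 0 passed limma's test over all genes. Of the 91, 47 were higher and 44 lower in cKO, with a median difference of 0.0021. Groups did not overlap in 18 genes that were higher and in 21 that were lower, or 19.8% and 23.1% of those measured, beside 17.8% and 15.6% of all genes. For the pathway genes named below, values are differences ± SE, and groups do not overlap unless stated. Their adjusted p-values ran from 0.897 upward (limma).

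Among ligands and receptors, the second IGF ligand gene, Igf2, shared with Igf1 its highest value in cKO replicate 1. It stood at -0.02 and 0.02 in Het and at 0.56 and -0.02 in cKO, a difference of 0.27 ± 0.22 with overlapping groups. Igf2r, whose product binds IGF2 and carries it to lysosomes, differed by -0.38 ± 0.16, at 0.33 and 0.04 in Het and -0.04 and -0.35 in cKO. The insulin receptor gene Insr was at 0.17 ± 0.15 with overlapping groups.

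The genes of carriers and of proteases that act on binding proteins included 8 of 11 with groups that do not overlap, 3 higher and 5 lower in cKO, or 27.3% and 45.5% beside 17.8% and 15.6% of all genes. Absolute differences of these 8 ran from only 0.05 to 0.58. The median absolute difference of the 11 genes was 0.08, beside 0.05 over all genes. Because the list was chosen with earlier results of these data known, the shares are a description only. The paralogous proteases that cut binding proteins differed in direction. Pappa, whose product cuts IGFBP4, was higher by 0.45 ± 0.16, at -0.10 and -0.19 in Het and 0.10 and 0.52 in cKO. Pappa2, whose product cuts IGFBP3 and IGFBP5, differed by -0.58 ± 0.23, at 0.72 and 0.11 in Het and -0.21 and -0.11 in cKO. Htra1, which encodes a secreted serine protease, differed by -0.49 ± 0.22. Igfals, the gene of the acid-labile subunit that joins IGF and IGFBP3 in the circulation, was at 0.08 ± 0.12 with overlapping groups.

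Downstream of the receptor, the adaptors had 5 of 14 genes higher, Irs1 and Irs2 included, with a median of -0.03 that turned to 0.01 without cKO replicate 2. Ptpn11, the gene of a phosphatase that relays receptor signals to RAS, differed by -0.18 ± 0.05, and Grb14, an inhibitory adaptor gene, by 0.09 ± 0.06. The nearest Grb14 arrays, Het replicate 2 at -1.67e-05 and cKO replicate 2 at 1.62e-05, were almost equal. Grb10, a related inhibitory adaptor gene that is imprinted, was at -0.36 ± 0.37 with overlapping groups. Of the PI3K, AKT and mTOR genes 12 of 26 were higher. Pik3r1, which encodes the PI3K regulatory subunit that docks on IRS proteins, stood at -0.18 and -0.43 in Het and at 0.18 and 0.43 in cKO, a difference of 0.61 ± 0.14 (adjusted p = 0.934, limma). Gsk3a, a kinase gene whose product AKT inhibits, was at 0.14 and 0.16 in Het and -0.31 and -0.14 in cKO, and differed by -0.38 ± 0.07 (adjusted p = 0.897, limma). Pdpk1, the gene of a kinase that activates AKT, differed by -0.32 ± 0.11.

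In the RAS and MAPK list 6 of 11 genes were higher. The RAS gene Nras differed by -0.40 ± 0.12, the feedback inhibitor gene Spry4 by -0.32 ± 0.12 and the RAF kinase gene Araf by 0.30 ± 0.10. FOXO factors and their targets, which AKT holds down, were divided by sign, with 9 of 18 higher. In 1 that was higher and 4 that were lower the groups did not overlap. These were 5.56% and 22.2% of the list, beside 17.8% and 15.6% of all genes. The cell cycle inhibitor gene Ccng2 was higher by 0.42 ± 0.15, while the stress response genes Sesn3 and Sesn1 differed by -0.33 ± 0.15 and -0.23 ± 0.12. In the growth hormone axis, which drives Igf1 transcription in liver, 6 of 8 genes were higher, beside 10420 of 19938 genes. These 6 differences ran from 0.0001 to 0.31, and the median of the list was 0.04. Groups did not overlap in 4 genes that were higher and 0 that were lower. The shares were 50% and 0% of the list, beside 17.8% and 15.6% of all genes. Stat5b and Stat5a, the transcription factor genes of that axis, were at 0.31 ± 0.14 and 0.22 ± 0.08, and the feedback inhibitor gene Cish was at 0.05 ± 0.04. The receptor gene Ghr was at -0.07 ± 0.09 with overlapping groups.

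**Figure D4:**
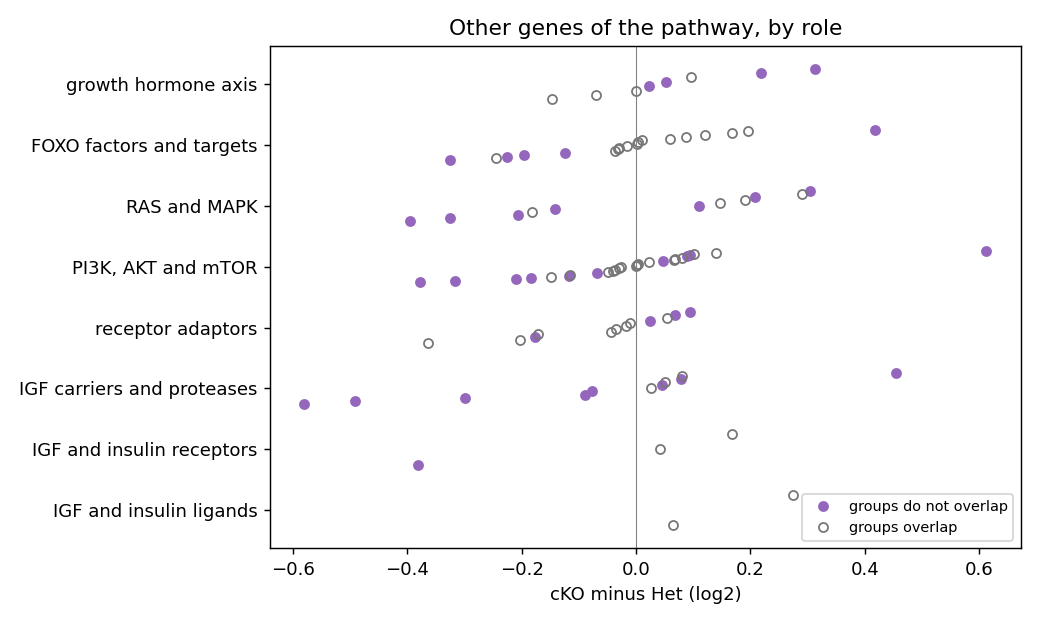
Difference between groups, cKO minus Het on the log2 scale, for the 91 measured pathway genes outside the members, 1 point per gene, placed by role (vertical axis). Filled points are genes whose groups do not overlap; Pik3r1 lies furthest to the right at 0.61 and Pappa2 furthest to the left at -0.58.

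Several properties of the samples varied with the arrays. Sox2, the targeted gene, was at 0.96 and 0.87 in Het and -0.87 and -0.94 in cKO, and whether its probe set lies in the deleted part was not examined. Itga9 differed by -0.14 ± 0.14 (SE) with overlapping groups. Xist was at -4.08 and -0.85 in Het and 0.85 and 1.23 in cKO, while the Y-linked Uty, Kdm5d and Eif2s3y, 3 of 3 measured, had both cKO arrays below both Het arrays. The values of these sex-linked genes thus went with the groups, so sex make-up and Sox2 genotype cannot be told apart in these arrays. Keratinocyte markers had lower cKO means for 10 of 11, beside 9513 of 19938 genes. Only 2 of them had groups that do not overlap, or 18.2% beside 15.6% of all genes. Their median was 0.39 in Het replicate 2, -0.10 in Het replicate 1 and -0.07 and 0.01 in cKO. The markers' median in Het replicate 1 thus lay below those of both cKO arrays. Het replicate 2 was also where the members' median was lowest, at -0.11. Dermal fibroblast markers were lower in cKO for 8 of 9, with medians of 0.09 and 0.17 in Het and -0.0008 and -0.10 in cKO. Of the 8, 4 had groups that do not overlap, or 44.4% of the list beside 15.6% of all genes. The 1 marker that was higher had separated groups as well. Melanocyte markers, 6 of 8 lower and 0 with separated groups, likewise peaked in Het replicate 2. Their median was 0.18 there, -0.09 in Het replicate 1 and -0.04 and 0.04 in cKO. Schwann and glial markers were lower in cKO for 6 of 7, with medians of 0.09 and 0.02 in Het and -0.02 and -0.11 in cKO. Of the 6, 3 had groups that do not overlap, or 42.9% of the list beside 15.6% of all genes. Differences in this list ran from -1.35 (Egr2, separated groups) to 0.09 (Foxd3, overlapping groups). The medians of the endothelial and immune markers lay between -0.03 and 0.01 in all arrays. Dermal papilla markers, Sox2 included, moved in both directions, with 7 of 16 higher and 9 lower and a median difference of -0.05. Groups did not overlap in 3 that were higher and 4 that were lower, or 18.8% and 25%, beside 17.8% and 15.6% of all genes. The median absolute difference of the papilla markers was 0.30, beside 0.05 over all genes. The part of these properties in the members' values was not tested, and in bulk samples fewer cells of a type and less RNA per cell cannot be told apart.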

How the data were processed

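Dermal papilla cells of 2 Het and 2 cKO samples were profiled on Affymetrix mouse gene arrays; RNA was amplified and biotin-labelled, per the labels' protocols. The authors' deposited values come from RMA according to the tools listed per the submitters' processing notes, and are taken as log2; the log base, the software version and how the values were centred are not stated in the labels or the table. Each of the 28853 probe sets had a median of 0 over the 4 arrays (within 5.0e-07), so no filter on low values could be applied and dim probe sets stay among those tested. Amplification of small RNA amounts adds variation between samples that cannot be separated from variation between animals, and the number of arrays limits the precision.

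Probe sets were named from the platform annotation: 21789 named 1 gene, 1621 several and 5443 none listed. Probe sets of 1 gene were averaged, giving 19938 genes. Groups were compared with limma 3.58.1 in R 4.3.3 (lmFit, eBayes, group as the only term, two-sided, Benjamini-Hochberg over all genes, threshold 0.05), with 2 residual and 1.52 prior degrees of freedom. On simulated data the fit was required only to recover planted differences on average, which does not test how it calls genes. Promoter windows were read from RefSeq tables with Python 3.11.15, and figures drawn with matplotlib 3.10.9. The members and lists were chosen with earlier results of these data known. Genes were named as follows: all members, Sox2, Itga9, the sex-linked genes, and the 3 largest differences with separated groups of each pathway list. Igf2, Insr, Igf2r, Igfals, Pappa, Htra1, Grb10 and Ghr were named in any case. Cell type markers were otherwise read as lists, with only the extremes of the Schwann and glial list named. Lists for other cell types (smooth muscle, adipocyte and Merkel) were also measured, with median differences of -0.04, -0.04 and 0.0053. Alternatives were arrays centred on their medians, each array left out, probe sets naming several genes, a replicate block, a robust prior, an unmoderated statistic, the median over probe sets, and single probe sets.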

Additional observations from a re-analysis of the deposited data

How the results depend on the processing

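limma called 0 genes under every alternative run, the replicate block included, with 769 to 1647 genes at an unadjusted p under 0.05 in the gene-level fits. The replicate numbers mark no stated pairing; the gaps between replicates 1 and 2 of the 2 groups correlated at 0.304 over genes, which are not independent, and with the block the members' adjusted p-values ran from 0.514 (Irs1) upward. No member passed under any alternative. Only centring and leaving out an array could move a member's difference: of these 50 results, 46 kept their direction and 4 reversed, while the other 50 had the same difference by construction. Much of that count was fixed in advance. The 2 differences left by dropping either array of a group average to the main one, so at least 1 keeps its sign. Members with separated groups could not reverse when an array was left out. Centring shifted every difference by the same small amount. The reversals with an array left out were those of Igf1r (-0.030 to 0.208), Igfbp3 (-1.81 to 0.48) and Igfbp4 (-0.11 to 0.28), and centring the arrays on their medians turned Igfbp6 to -0.0019. With 1 array left out, 6 to 7 members had groups that do not overlap, as did 62.0% to 71.1% of all genes with 3 arrays, so that count rises with fewer arrays. The median difference of the members ran from -0.0055 (without Het replicate 2) to 0.11. A lone array was assumed to vary like the other group.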
